A study of Mus musculus with 32 samples.

Results

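The livers of 4 female and 4 male KO mice on the WD, 8 of the 32 libraries deposited, were compared gene by gene to ask how far the transcriptome of the KO liver differed between the sexes under a fat-rich and cholesterol-rich diet. KO denotes Nudt7-/-, a whole-body deletion made with CRISPR/Cas9 that removed exons 3 and 4 of Nudt7, the gene of a peroxisomal hydrolase that cleaves CoA and acyl-CoAs. The line came from a single mosaic founder obtained in FVB zygotes and was backcrossed onto C57BL/6J, so both sexes carried the same allele. The WD supplied 41% of the calories as fat and contained 0.2% cholesterol, was given from 6 weeks of age, and the mice were killed at 17 to 20 weeks. WT females and WT males on the WD and KO females and KO males on the CD, 4 livers a group, were also used. The CD was a control diet with 10% of the calories as fat and no cholesterol. These groups served only to see where the sex difference of the KO livers on the WD differed. The feeding state of these livers at harvest is not given in the sources used here. Genes were quantified from poly(A) RNA of whole liver, and only autosomal genes are described. Of 32708 autosomal genes with transcripts in the files, 12306 passed a minimum of 10 counts, met by 4 or more of the 8 libraries, and were tested.

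The sexes of the mouse liver differ mainly through growth hormone, which the pituitary releases in pulses in males and almost continuously in females. The pulses activate the transcription factor STAT5b in hepatocytes intermittently in males, and downstream regulators such as the repressors BCL6 (male-predominant) and CUX2 (female-predominant) hold the programs of each sex apart. The best-known outputs are families of cytochrome P450s, sulfotransferases and transporters that handle steroids, bile acids and drugs, and the major urinary proteins (MUPs), lipocalins that carry pheromones in male urine.

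Library totals lay between 12085451 and 15825078 estimated counts in the KO females and between 11134562 and 14119439 in the KO males. Levels are given as CPM, as mean ± SD (n = 4). CPM is the counts of a gene relative to its library total scaled with TMM factors over all 32 libraries. Differences are log2(KO females/KO males) ± SE, with Benjamini-Hochberg adjusted p from edgeR's quasi-likelihood test. The SE was derived from that test, as the absolute difference divided by the square root of its F statistic. A gene is called where the adjusted p is under 0.05. The 4 Y-linked genes used to check the labels were all lower in the libraries labelled female, with at most 0.764 CPM there and at least 14.8 CPM in the males. Replicate livers had Spearman correlations of 0.978 to 0.991 across genes, and the first principal component, with 59.3% of the variance, separated the sexes. KO male 1 lay apart on the second (11.8%). Since whole liver was sequenced, fewer cells of a type and less RNA per cell cannot be told apart.

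Nudt7 itself (chromosome 8) retained reads in all KO livers. Counts are summed over the gene and not only over the deleted exons, and where in the gene these reads lie was not examined. Its level was 63.1, 28.1, 29.4 and 25.4 CPM in KO females 1 to 4 and 92.2, 41.1, 154.7 and 57.3 CPM in KO males 1 to 4. The ranges overlapped. On the same diet the WT females had 130.5 ± 32.4 CPM and the WT males 511 ± 105 CPM, so every KO liver lay below every WT liver of its own sex. The sex difference in the KO livers did not pass the test, with a log2 difference of -1.25 ± 0.50 (adjusted p = 0.179; two-sided exact permutation p = 0.0857, where 0.0286 is the smallest that 4 against 4 allow). In the WT livers it was -1.95 ± 0.21 (adjusted p = 0.000388), and the difference between these sex differences was 0.73 ± 0.59 (adjusted p = 0.804).

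Sequences around the start sites of 4 of the genes described below are shown. The genes have wide sex differences and belong to 3 families, and the sequences carry, or lack, letters of motifs named for liver regulators. They run 5′ to 3′ from 250 bases before to 50 bases after the start (RefSeq, GRCm38.p6), and capitals mark matches on either strand to TTCNNNGAA, the STAT5 type of motif, ATCGAT, the CUX and HNF6 type, or CAAAGTCCA, the HNF4A type. The motifs were searched separately and no match in these 4 overlapped another. A1bg (chr15:60921221-60921520, minus strand) and Slc22a26 (chr19:7802618-7802917, minus strand) were higher in females, each with a STAT5-type match, starting at -84 and -141 relative to the start. Cyp3a41a (chr5:145720087-145720386, minus strand) was higher in females, with an HNF4A-type match at -95. Cyp2d9 (chr15:82452127-82452426, plus strand) was lower in females and had no match. Cyp2b13, higher in females, and Hsd3b5 and Mup7, lower in females, had no match either and are not shown. Binding was not measured.
A1bg: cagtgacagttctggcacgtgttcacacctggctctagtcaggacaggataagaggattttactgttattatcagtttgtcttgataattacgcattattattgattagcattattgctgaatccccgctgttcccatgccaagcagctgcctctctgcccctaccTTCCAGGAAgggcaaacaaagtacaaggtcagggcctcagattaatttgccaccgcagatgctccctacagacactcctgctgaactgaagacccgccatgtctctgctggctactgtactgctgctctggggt
Slc22a26: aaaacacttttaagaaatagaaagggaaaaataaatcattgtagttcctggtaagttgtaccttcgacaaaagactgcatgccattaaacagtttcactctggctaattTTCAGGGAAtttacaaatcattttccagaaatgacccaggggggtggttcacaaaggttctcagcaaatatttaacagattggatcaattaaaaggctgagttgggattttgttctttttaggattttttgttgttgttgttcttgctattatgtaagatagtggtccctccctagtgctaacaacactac
Cyp3a41a: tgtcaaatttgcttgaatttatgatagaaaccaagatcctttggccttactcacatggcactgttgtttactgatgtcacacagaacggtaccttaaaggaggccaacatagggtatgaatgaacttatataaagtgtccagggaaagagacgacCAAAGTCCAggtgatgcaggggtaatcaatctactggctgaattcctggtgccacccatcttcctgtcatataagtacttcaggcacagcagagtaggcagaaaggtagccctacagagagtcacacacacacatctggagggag
Cyp2d9: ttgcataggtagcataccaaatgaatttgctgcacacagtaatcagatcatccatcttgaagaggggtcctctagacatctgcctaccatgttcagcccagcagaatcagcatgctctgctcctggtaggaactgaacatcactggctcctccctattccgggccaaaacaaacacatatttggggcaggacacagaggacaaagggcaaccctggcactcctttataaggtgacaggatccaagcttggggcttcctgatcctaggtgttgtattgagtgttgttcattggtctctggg
The promoter of Cyp3a41b, the neighbouring copy, differed from that of Cyp3a41a at 8 of the 300 positions, compared without alignment. These include positions shifted by a longer CA repeat near the 3′ end in Cyp3a41b. Promoters were found for 902 of the called genes. The STAT5-type letters stood in 9.43% of the promoters of genes higher in females, 7.34% of those lower, 8.61% of those of genes tested and 9.55% of all promoters in the table. The HNF4A-type letters stood in 2.16%, 0.942%, 0.674% and 0.555%. Among the 27 genes with a promoter and a log2 difference over 3, the 5 with the HNF4A-type match were Cyp2c40, Cyp2c69, Cyp3a16, Cyp3a41a and Cyp3a41b, which belong to 2 families of copies, and 4 held the STAT5-type match (14.8%). Among the 26 under -3, Nat8 and Treh held the HNF4A-type match (7.69%) and 1 the STAT5-type (3.85%). The CUX and HNF6-type letters stood in 1.89% of the promoters of genes higher in females, 1.69% of those lower, 0.864% of those of genes tested and 1.02% of all.

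Of the 12306 autosomal genes, 1187 (9.65%) were called, 514 (4.18%) higher and 673 (5.47%) lower in KO females. These shares are the ones to set beside the counts of each gene list below. The median difference was 0.71 among the genes called higher and -0.58 among those called lower, beside a median of 0 over all genes tested to 2 decimals. The sexes did not overlap for 2116 genes (17.2%), which included 1125 of the called genes. The females were higher for 8.45% and lower for 8.74% of the genes tested. Wide differences were about as frequent in either direction, since 41 of the genes called higher exceeded 3 on the log2 scale and 44 of those called lower fell under -3. Of the called genes, 41 higher and 26 lower in females reached the count minimum in libraries of 1 sex only, so these could hardly have been tested without differing. The count of calls fell below the total by over 1.5 times when KO male 3 (780), KO female 1 (688), KO female 2 (579) or KO female 3 (624) was left out. The plot of difference against level shows wide differences among both scarce and abundant transcripts.

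**Figure D1:**
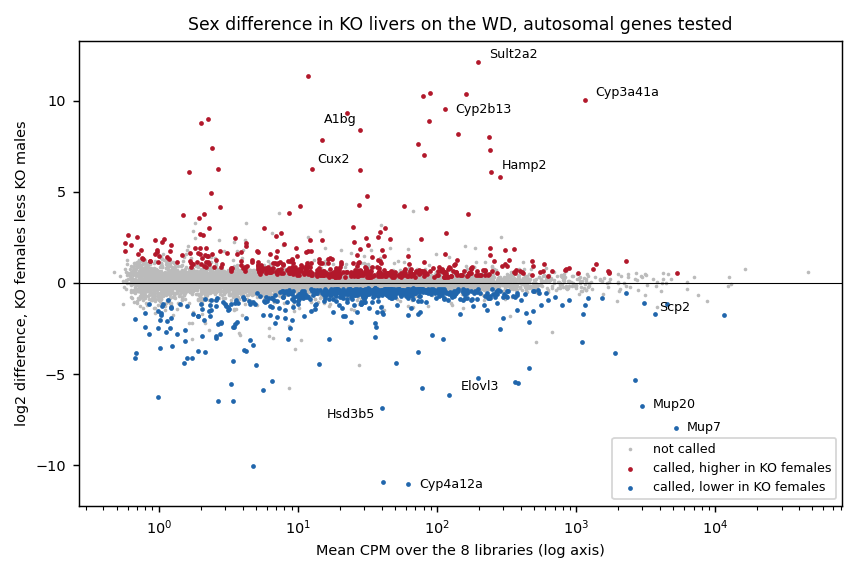
Log2 difference between KO females and KO males on the WD (y) against the mean CPM of the 8 libraries (x, log axis) for the 12306 autosomal genes tested. Red points are the 514 genes called higher in KO females and blue points the 673 called lower; Sult2a2 and Cyp3a41a stand at the top and Cyp4a12a and Mup7 at the bottom.

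Genes known to be female-predominant in mouse liver were higher in the KO females, and male-predominant ones were lower. Of the 34 female-predominant genes tested of 35 listed, 29 were called higher and 1 lower (Cd36), with a median difference of 5.28. Of the 34 male-predominant genes tested of 37 in the files, 28 were called lower and 1 higher (Socs2), with a median of -3.24. Of these members, 9 of the first list and 4 of the second reached the count minimum in 1 sex only. These lists hold genes named for this very contrast in the liver, so their direction is a check and no independent evidence. The counts of Cd36 and Socs2 were unsteady: Cd36 (a fatty acid translocase) had 114 to 149 CPM in females and 131 to 198 in males, with a difference of -0.52 ± 0.14 (adjusted p = 0.0438), and lost its call without KO male 1, 2 or 4 or KO female 2, 3 or 4 (adjusted p = 0.0746 to 0.132).

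**Figure D2:**
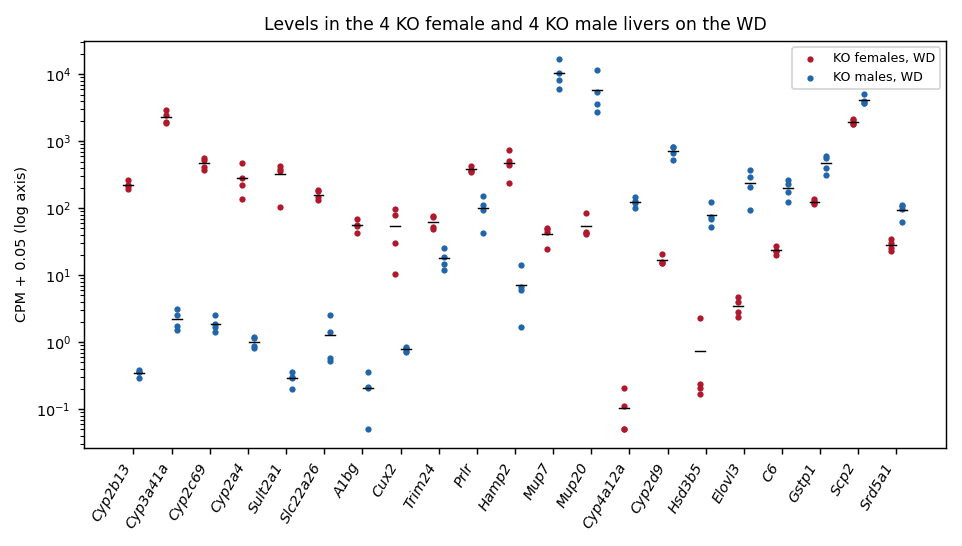
CPM + 0.05 (y, log axis) of 21 genes in each KO female (red) and KO male (blue) liver on the WD; each point is a liver and each bar the mean of 4. The sexes do not overlap for any gene shown, with Cyp2b13 at 196 to 265 CPM in females and 0.239 to 0.336 in males, and Mup7 at 24.4 to 50.4 and 5987 to 16813. Many of these genes were chosen among those whose sexes did not overlap, which held for 17.2% of all genes tested.

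The cytochrome P450s of families 2 and 3, which oxidise steroids and drugs, included genes with differences of more than 5 on the log2 scale in either direction. Cyp2b13 had 265, 196, 218 and 225 CPM in KO females 1 to 4 and 0.239, 0.307, 0.309 and 0.336 CPM in KO males 1 to 4. The sexes were far apart, at 9.52 ± 0.18 (adjusted p = 1.98e-11). Its neighbour Cyp2b9 had 578, 571, 556 and 542 CPM in the females and 4.63, 11.4, 3.56 and 20.9 in the males, a difference of 5.79 ± 0.59 (adjusted p = 0.00177). The males therefore varied among themselves by a wider factor than the females. Cyp2a4, a testosterone hydroxylase, was at 281 ± 144 CPM in females and 0.97 ± 0.192 in males (8.15 ± 0.52, adjusted p = 0.000127), and Cyp2a22 at 158 ± 19 and 9.25 ± 6.04 (4.09 ± 0.41, adjusted p = 0.00148). Cyp2a5, the close copy of Cyp2a4, had 311 to 521 CPM in females and 137 to 353 in males, and its difference of 0.62 ± 0.28 did not pass (adjusted p = 0.206). Cyp2a4 and Cyp2a5 share 58.9% and 54.6% of their 31-base words (stretches of 31 bases in their transcripts) with other genes, mostly with each other. Reads may therefore have been divided between them with error. Cyp2b13 shares 40.8%, Cyp2b9 26.1%, Cyp2a22 34.6% and Cyp2d9 34.8%. Over the Cyp2a, Cyp2b and Cyp2d genes, 4 of 13 tested were called higher and 1, Cyp2d9, lower. Of the 13, 1 had reached the count minimum in 1 sex only. Cyp2d9, a male testosterone hydroxylase, had 15.1, 15.4, 15.6 and 20.9 CPM in the females and 519, 817, 834 and 668 in the males (-5.41 ± 0.20, adjusted p = 9.64e-09).

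In the Cyp2c family, 6 of 13 genes tested were called higher and 1 lower, and the count of 6 fell to 3 without KO female 1 or KO female 3. Cyp2c69 was the clearest, with 567, 371, 420 and 525 CPM in the females and 1.67, 1.38, 2.47 and 1.85 in the males (7.98 ± 0.23, adjusted p = 5.84e-10). Cyp2c40 lay at 480 ± 141 CPM in females and 3.03 ± 2.88 in males, and Cyp2c68 at 481 ± 43.1 and 136 ± 13.5. Cyp2c67 went the other way, with 98 to 172 CPM in the females and 205 to 268 in the males (-0.91 ± 0.17, adjusted p = 0.0064). These 4 genes lie in the Cyp2c cluster of chromosome 19, and Cyp2c68, Cyp2c40, Cyp2c69 and Cyp2c67 share 62, 72.6, 64.9 and 67.6% of their 31-base words with other genes. Reads may have been divided among them with error. Cyp2c29, a major hepatic P450 of the same family, had 971 to 1148 CPM in females and 568 to 1503 in males and was not called (0.19 ± 0.25, adjusted p = 0.692).

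Of the Cyp3a genes, 4 of 8 tested were called higher and none lower, beside 4.18% and 5.47% of all genes tested. Of the 8, 2 had reached the count minimum in 1 sex only, so these could hardly have been tested without differing. Cyp3a41a had 2887, 1898, 2475 and 1938 CPM in the females and 2.47, 1.46, 1.7 and 3.1 in the males (10.04 ± 0.30, adjusted p = 7.30e-10). Cyp3a16 lay at 174 ± 64 CPM in females and 0.358 ± 0.141 in males, and Cyp3a44 at 144 ± 45.3 and 0.715 ± 0.27. Cyp3a16 and Cyp3a44 share 27.3% and 48.4% of their 31-base words with other genes. Cyp3a41b was read in 1 of the 4 males. Its transcripts share 95.9% of their 31-base words with other genes, and those of Cyp3a41a 99.9%, so the division of reads between these copies is uncertain. Cyp3a11, the main inducible member, had 2018 to 2719 CPM in females and 1490 to 3573 in males and was not called (-0.22 ± 0.25, adjusted p = 0.612). In the Cyp4a group, fatty acid omega-hydroxylases, Cyp4a10 lay at 437 ± 276 CPM in females and 634 ± 353 in males (adjusted p = 0.61) and was not called. Cyp4a12a and Cyp4a12b were expressed in males. Cyp4a12a had 0, 0.0601, 0.156 and 0 CPM in the females, 3 counts in all, and 127, 147, 122 and 103 in the males, a ratio of 2399.5 (95% counting interval 821 to 11635). Cyp4a12b, with 2 counts in the females and 81.9 ± 21.5 CPM in the males, had a ratio of 2365 (655 to 19531). These intervals cover counting error only. The pair share 62.2% and 62.9% of their 31-base words, mostly with each other. Of the 14 genes of this list, 4 were called lower, 2 of which had reached the count minimum in 1 sex only, and the count of 4 fell to 2 without KO female 2 or KO female 3.

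The Sult2a sulfotransferases, which sulfate hydroxysteroids and bile acids, included several with hardly any count in the males. Sult2a1 had 365, 424, 389 and 106 CPM in the females and 0.239, 0.154, 0.309 and 0.252 in the males (10.34 ± 0.69, adjusted p = 0.000213). KO female 4 was the lowest of the females for this gene, as it was for Sult2a2 (203 CPM, against 435 to 505 in the others). Sult2a2 was read in 2 of 4 males at up to 0.16 CPM (12.13 ± 0.54, adjusted p = 2.94e-06). Sult2a3 had 9.72 to 79.1 CPM in the females and 3 counts over the males, a ratio of 735.5 (252 to 3567). Sult2a5 had 7.71 to 42.1 CPM in the females and no count in the males, at least 388-fold higher against a floor of 3 counts over the group; its call was lost without any of the 4 males (adjusted p = 0.0582 to 0.0658) or without KO female 1 or 3 (0.108). Sult2a7 (10.2 ± 4.41 and 1.22 ± 0.61 CPM) and Sult3a1 (29.5 ± 16.4 and 0.117 ± 0.136 CPM) were also called higher. Sult2a8 was the exception, at 337 ± 114 CPM in females and 781 ± 203 in males (-1.22 ± 0.30, adjusted p = 0.0337), a call lost without KO male 2, 3 or 4 or KO female 1 or 3 (adjusted p = 0.0669 to 0.0954). In all, 8 of 15 sulfotransferases tested were called higher and 1 lower, and 5 of the 15 had reached the count minimum in 1 sex only. Sult2a1, Sult2a2, Sult2a3 and Sult2a5 share 55.6%, 74.5%, 27.4% and 51.1% of their 31-base words with other genes.

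The flavin monooxygenases, which oxidise nitrogen and sulfur in small molecules, differed in both directions. Fmo2 (51.8 ± 13 and 12.2 ± 4.66 CPM) and Fmo4 (17.6 ± 5.02 and 5.33 ± 1.17 CPM) were higher in females, as was Fmo1, all on chromosome 1. Fmo5, on chromosome 3, was lower, with 351 to 545 CPM in females and 786 to 1545 in males (-1.23 ± 0.22, adjusted p = 0.0064). Of the UDP-glucuronosyltransferases, 5 of 18 were called lower and 1 was called higher, beside 5.47% lower and 4.18% higher of all genes tested. The 1 called higher was lost without KO male 1 or 3 or KO female 1, 2 or 3. Ugt2b1 lay at 201 ± 35.1 CPM in females and 553 ± 187 in males (-1.47 ± 0.24, adjusted p = 0.00407) and Ugt2b38 at 0.136 ± 0.107 and 2.92 ± 1.02 (-4.38 ± 0.52, adjusted p = 0.000339). Ugt2b38 shares 52.9% of its 31-base words with other genes. Of the 18, 1 had reached the count minimum in 1 sex only. The glutathione S-transferases were called in both directions, 5 of 22 higher and 3 lower. The 5 fell to 1 or 2 without KO male 3 or 4 or KO female 1, 2 or 3, and the 3 fell to 1 without KO female 1 or 2. Gstp1, the pi-class enzyme, had 115, 136, 128 and 120 CPM in the females and 573, 399, 605 and 310 in the males (-1.92 ± 0.20, adjusted p = 0.000166), with the sexes well apart. Gstp1 shares 38.5% of its 31-base words with other genes.

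The MUPs were the most abundant of the genes that were lower in females. Over the 22 genes of the list, all tested, their summed level ran from 7056 to 19346 CPM in the females and from 51779 to 89698 CPM in the males. Mup7 had 49.6, 24.4, 43.7 and 50.4 CPM in the females and 5987, 10420, 16813 and 8138 in the males (-7.95 ± 0.44, adjusted p = 2.72e-06). Mup20, which encodes the pheromone darcin, had 44.7, 41.5, 42.9 and 85.4 CPM in the females and 11631, 5529, 3570 and 2700 in the males (-6.77 ± 0.62, adjusted p = 0.000628). The males thus spread over a wider range than the females for both, but in neither did the sexes overlap. Mup14 (129 ± 54.7 and 5165 ± 2075 CPM), Mup1 (16.9 ± 6.96 and 749 ± 468 CPM), Mup12 (2.84 ± 0.971 and 154 ± 62.5 CPM), Mup21 (4.55 ± 1.67 and 96.3 ± 41.4 CPM) and Mup11 (246 ± 92.3 and 3559 ± 2043 CPM) followed. Mup3 differed less, at 1729 ± 309 and 5683 ± 1326 CPM (-1.72 ± 0.20, adjusted p = 0.000339). Mup8 had no count in the females and 4.36 to 13.8 CPM in the males, at least 182-fold higher there. In all, 16 of the 22 were called lower and none higher, with a median of -2.60. Of the 22, 2 had reached the count minimum in 1 sex only. Of the 16, 10 lay in 2 runs of called neighbours on chromosome 4, Mup4, Mup6, Mup7, Mup2, Mup8, Mup9 and Mup1 in the first and Mup20, Mup3 and Mup21 in the second. Called MUP pseudogenes, 4 in all, lay among them. Most MUPs named share the greater part of their 31-base words with other MUPs (90% for Mup7, 89.2% for Mup14, 64.5% for Mup20 and 30.1% for Mup3), so single-gene values within the cluster are uncertain.

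Other genes lower in females included Hsd3b5, a 3-ketosteroid reductase of the male liver, with 0.191, 0.12, 0.156 and 2.27 CPM in the females and 74.3, 70, 123.5 and 51.9 in the males (-6.84 ± 0.72, adjusted p = 0.0025). KO female 4 was the highest female. Elovl3, an elongase of very long-chain fatty acids, lay at 3.41 ± 1.07 and 242 ± 118 CPM (-6.16 ± 0.53, adjusted p = 0.000809) and Selenbp2 at 9.78 ± 2.46 and 137 ± 64.2 CPM. Hsd3b5 and Selenbp2 share 34.1% and 59.3% of their 31-base words with other genes. Srd5a1, the steroid 5-alpha-reductase, had 28.3 ± 5.44 CPM in females and 94.7 ± 22.8 in males (-1.75 ± 0.20, adjusted p = 0.00074), and Cyp7b1, the oxysterol 7-alpha-hydroxylase, 22.3 ± 5.88 and 163 ± 74.8 CPM (-2.88 ± 0.37, adjusted p = 0.00415). Cyp17a1, which makes androgen precursors in steroidogenic organs, was higher in females, with 140, 138, 102 and 60.7 CPM against 8.22, 10.8, 1.55 and 2.77 (4.22 ± 0.61, adjusted p = 0.0093). Hao2, a peroxisomal hydroxyacid oxidase, had 14.8 to 42.9 CPM in females and 0.252 to 0.386 in males (6.26 ± 0.49, adjusted p = 0.000213). A1bg, a plasma glycoprotein whose promoter is shown above, had 56.1, 70.2, 53.9 and 42.9 CPM in the females and 0, 0.307, 0.155 and 0.168 in the males (8.37 ± 0.31, adjusted p = 5.50e-08).

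Of 20 regulators of the growth hormone axis tested, 6 were called higher in females and none lower. Over all genes tested, 4.18% were higher and 5.47% lower. Cux2, Trim24 and Tox also stand on the female-predominant list, so their direction is a check and no independent evidence. The count of 6 fell to 4 without KO male 2 or KO female 1, 2 or 3. Cux2 had 30.2, 98, 80.5 and 10.3 CPM in the females and 0.798, 0.768, 0.696 and 0.671 in the males (6.20 ± 0.98, adjusted p = 0.0138). The females differed among themselves by far more than the males, KO female 4 being the lowest. Trim24, a nuclear co-regulator, had 63.3 ± 14.1 CPM in females and 17.8 ± 5.89 in males (1.82 ± 0.25, adjusted p = 0.00326), and Tox, an HMG-box factor, 11.8 ± 0.992 and 5.07 ± 0.511 (1.21 ± 0.13, adjusted p = 0.000166). Prlr, the prolactin receptor, had 367, 351, 429 and 378 CPM in the females and 42.6, 113, 95.3 and 150.3 in the males (1.92 ± 0.33, adjusted p = 0.0114). Socs2, a feedback inhibitor of STAT5 signaling, had 34.9 to 53.9 CPM in females and 4.71 to 20.8 in males (1.85 ± 0.41, adjusted p = 0.0347), and Igfals, the carrier subunit of circulating IGF-1, 72.5 to 94.4 and 38.2 to 66.3 (0.60 ± 0.17, adjusted p = 0.0459). The call of Socs2 was lost without KO male 1 or 2 or KO female 1, 2 or 3 (adjusted p = 0.0729 to 0.0955) and that of Igfals without KO male 2 or any of the KO females (0.0657 to 0.117). Bcl6 lay at 17.1 ± 10.3 and 37.6 ± 29.4 CPM and was not called (-1.13 ± 0.70, adjusted p = 0.368). Neither were the receptor Ghr (515 ± 24.3 and 526 ± 97.8 CPM), Stat5b (75.8 ± 1.18 and 76.9 ± 6.91 CPM) and Igf1 (627 ± 92.9 and 592 ± 86.1 CPM), whose adjusted p-values were 0.903, 0.886 and 0.798 and whose small differences changed sign under other settings. Esr1, the estrogen receptor, was higher in females at 54 ± 7.88 and 25.6 ± 6.7 CPM (1.07 ± 0.19, adjusted p = 0.00936).

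**Figure D3:**
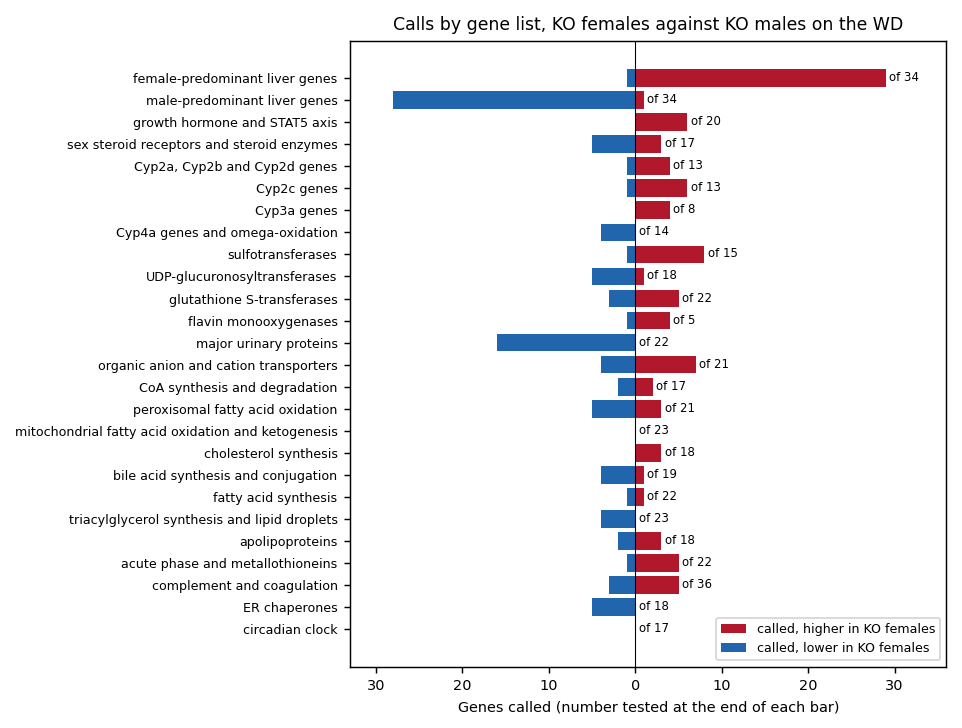
Number of autosomal genes called higher (red, to the right) and lower (blue, to the left) in KO females than in KO males on the WD in 26 gene lists, with the number tested beside each bar. The female-predominant list has 29 of 34 called higher, the male-predominant list 28 of 34 called lower, and the lists of mitochondrial fatty acid oxidation (23 tested) and of the circadian clock (17 tested) have no call.

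The transporters of organic anions and cations were called in both directions, 7 of 21 higher and 4 lower, and the 7 fell to 4 without KO female 2 or 3. Slc22a26 had 145, 181, 185 and 131 CPM in the females and 0.479, 0.537, 1.39 and 2.52 in the males (7.03 ± 0.38, adjusted p = 2.30e-05). Slc22a27, beside it on chromosome 19, lay at 60.7 ± 18.5 and 2.2 ± 1.45 CPM (4.77 ± 0.45, adjusted p = 0.00113), while Slc22a28 of the same cluster was male, at 0.289 ± 0.339 and 12.8 ± 3.88 CPM (-5.40 ± 0.61, adjusted p = 0.00151). Slc22a27 and Slc22a28 share 46.9% and 68.2% of their 31-base words with other genes. Slco1a1, an uptake carrier of sulfated steroids, had 9.23, 0.0601, 3.12 and 29.1 CPM in the females and 326, 470, 469 and 283 in the males (-5.22 ± 1.14, adjusted p = 0.0397), a call lost without any of the KO males or without KO female 1 or 3 (0.0644 to 0.111). Slco1a4 went the other way, at 172 ± 20.1 and 57 ± 24.5 CPM (1.59 ± 0.31, adjusted p = 0.0206), and lost its call without KO male 1 or KO female 2 or 3 (0.0545 to 0.0586). Abcb4, the phospholipid floppase of the bile canaliculus, was lower in females at 238 ± 39 and 388 ± 38.5 CPM (-0.71 ± 0.14, adjusted p = 0.0083).

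Of the genes of CoA synthesis and degradation, to which Nudt7 belongs, 2 of 17 were called higher and 2 lower. Over all genes tested the shares were 4.18% and 5.47%. None of these 4 members differed by as much as 1 on the log2 scale. Vnn3, a pantetheinase, lay at 86.1 ± 9.24 and 54.5 ± 11.9 CPM (0.65 ± 0.15, adjusted p = 0.018) and Enpp1, an ectonucleotide pyrophosphatase, at 48.5 ± 2.77 and 33.8 ± 5.59 (0.51 ± 0.12, adjusted p = 0.0187). Enpp3 (56.7 ± 2.4 and 83.1 ± 17 CPM, adjusted p = 0.0215) and Fitm2, an acyl-CoA diphosphatase (37.2 ± 3.31 and 57.3 ± 12.6 CPM, adjusted p = 0.0228), were lower. Each of these calls was lost without at least 1 library: Vnn3 without KO female 1 or 2 (0.0542 and 0.0614), Enpp1 without KO female 3 (0.0602), Enpp3 without KO male 3 or KO female 1, 2 or 3 (0.0519 to 0.0732) and Fitm2 without KO male 2 or KO female 1, 2 or 3 (0.0513 to 0.0736). Nudt19, the other peroxisomal CoA hydrolase of the list, had 29.8 to 36.1 CPM in females and 28.3 to 30.9 in males (0.10 ± 0.09, adjusted p = 0.506), and Pank1, which starts CoA synthesis, 249 to 304 and 186 to 291 (0.15 ± 0.15, adjusted p = 0.576).

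In peroxisomal fatty acid oxidation 5 of 21 genes were called lower in females and 3 higher, beside 5.47% and 4.18% of all genes tested. The 5 became 8 without KO male 1 and 3 without KO female 2 or 3. Of the 21, 1 had reached the count minimum in 1 sex only. Scp2, whose thiolase form ends the shortening of branched chains and bile acid precursors, had 2093, 1814, 1813 and 2146 CPM in the females and 3710, 5097, 4004 and 3762 in the males (-1.08 ± 0.16, adjusted p = 0.00136). Scp2 shares 33.4% of its 31-base words with other genes. Phyh, the phytanoyl-CoA hydroxylase, lay at 879 ± 114 and 1563 ± 273 CPM (-0.84 ± 0.16, adjusted p = 0.00824) and Hsd17b4, the bifunctional enzyme, at 343 ± 37.7 and 512 ± 68.7 (-0.59 ± 0.13, adjusted p = 0.0182), whose call was lost without KO female 2 or 3 (0.0604 and 0.0711). Abcd2, a transporter of very long-chain acyl-CoAs, was higher in females at 76.7 ± 17.9 and 14.5 ± 9.15 CPM (2.41 ± 0.45, adjusted p = 0.0212), a call lost without KO male 1 or 2 or KO female 2 or 3 (0.0558 to 0.0611). None of 23 mitochondrial oxidation and ketogenesis genes was called by edgeR, and 3 were called lower without KO male 1.

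All 18 genes of cholesterol synthesis tested had a difference above 0, with a median of 0.96, but 3 were called: Sqle (16 ± 13.5 and 1.13 ± 0.741 CPM, adjusted p = 0.0366), Sc5d (642 ± 198 and 339 ± 71.8 CPM, adjusted p = 0.0359) and Tm7sf2 (50 ± 20.2 and 18.4 ± 5.73 CPM, adjusted p = 0.0482). The count of 3 was 0 or 1 without any of the KO males or without KO female 1, 2 or 3, and 8 without KO female 4, in which the pathway was lowest among the females. Sqle, for example, had 12.8, 35.2, 12.4 and 3.56 CPM in the females and 2.23, 0.844, 0.618 and 0.839 in the males. In fatty acid synthesis 1 of 22 genes, Pnpla3, was called higher and 1, Elovl3, lower. Each count is near the share over all genes tested, 4.18% higher and 5.47% lower. Without KO female 4 the count of genes called higher was 7. Pnpla3 had 17, 35.4, 23.7 and 2.85 CPM in the females and 2.71, 0.768, 0.464 and 0.168 in the males (adjusted p = 0.0473), and lost its call without any other single library (0.057 to 0.125). Fasn (780 ± 290.3 and 433 ± 286 CPM, adjusted p = 0.395) and Scd1 (20739 ± 9061 and 12273 ± 11268 CPM, adjusted p = 0.643) varied within each sex about as much as between them.

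Triacylglycerol and uptake genes differed for a few members. In the list of triacylglycerol synthesis and lipid droplets 4 of 23 were called lower and none higher. Over all genes tested, 5.47% were lower and 4.18% higher. The 4 include Fitm2, whose call was lost without KO male 2 or KO female 1, 2 or 3. Fitm1, which helps form lipid droplets, had 4.27, 2.16, 2.5 and 1.75 CPM in the females and 13.6, 13.9, 15.5 and 16.1 in the males (-2.47 ± 0.22, adjusted p = 5.59e-05), Mogat1 0.469 ± 0.159 and 1.62 ± 0.439 (adjusted p = 0.00788) and Gpat4 126 ± 16.7 and 190 ± 20.5 (adjusted p = 0.0116). Vldlr, the receptor for very-low-density lipoprotein, was higher in females, with 23.7, 27.5, 25.5 and 23.6 CPM against 3.67, 6.45, 2.47 and 6.71 (2.37 ± 0.26, adjusted p = 0.000672), and Fabp2 was lower at 82.5 ± 12.8 and 156 ± 30.3 CPM (-0.93 ± 0.15, adjusted p = 0.00326). Of 13 carboxylesterases 3 were called higher (Ces1c, Ces1d and Ces1g) and 3 lower (Ces4a, Ces3a and Ces2c), beside the same shares. The latter count was 0 or 1 without any of the KO males or without KO female 1, 2 or 3. Ces1c (3159 ± 263 and 1382 ± 172 CPM) and Ces1d (673 ± 99 and 295 ± 89.6 CPM) were higher in females, both by 1.19 on the log2 scale (adjusted p = 0.000448 and 0.00419). Cyp7a1, the rate-limiting enzyme of bile acid synthesis, had 178, 136, 466 and 417 CPM in the females and 32.4, 81.8, 82.5 and 115 in the males, which did not overlap, but the difference of 1.93 ± 0.55 did not pass (adjusted p = 0.0783). Abcg8, of the sterol export pair, was lower in females at 169 ± 36.8 and 294 ± 67.2 CPM (-0.81 ± 0.19, adjusted p = 0.0218), a call lost without KO male 2 or 3 or KO female 1, 2 or 3 (0.0515 to 0.0736).

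Hamp2, a relative of hepcidin, had 517, 735, 437 and 238 CPM in the females and 5.9, 14.4, 1.62 and 6.63 in the males (6.07 ± 0.70, adjusted p = 0.00353). Hamp, which encodes hepcidin, the hormone that limits iron release, had 316, 821, 593 and 516 CPM in the females and 89.8, 154, 178 and 199 in the males (1.85 ± 0.33, adjusted p = 0.0114). These neighbours share 33.7% (Hamp) and 34.5% (Hamp2) of their 31-base words with other genes. The metallothioneins Mt1 (75.2 ± 31.1 and 9.35 ± 6.29 CPM, adjusted p = 0.0236) and Mt2 (44.6 ± 27.1 and 5.24 ± 3.52 CPM, adjusted p = 0.0323) were higher in females, but Mt1 lost its call without KO male 1 or 3 or KO female 2 or 3 (0.0548 to 0.0709) and Mt2 without KO male 1, 2 or 3 or KO female 2 (0.0649 to 0.0913). Mt2 shares 58.1% of its 31-base words with other genes. C6 and C9, of the terminal complement pathway, were lower in females, C6 with 22.9, 23, 27.7 and 20.3 CPM against 264, 173, 232 and 126 (-3.09 ± 0.22, adjusted p = 3.48e-05) and C9 at 281 ± 43.6 and 529 ± 134 CPM (-0.92 ± 0.18, adjusted p = 0.0104). Mbl2, a mannose-binding lectin, was higher at 417 ± 42.4 and 201 ± 8.42 CPM (1.05 ± 0.11, adjusted p = 0.00016). The ER chaperones had a median of -0.53, with 17 of 18 members at or below 0 and 5 called lower, among them Hyou1 (107 ± 31.6 and 202 ± 29.8 CPM, adjusted p = 0.0161), Calr (526 ± 93.6 and 890.4 ± 199.5 CPM, adjusted p = 0.0213) and Dnajc3 (202 ± 23.9 and 304 ± 37.8 CPM, adjusted p = 0.0133). These 5 became 2 without KO male 3, 3 without KO female 1, 2 without KO female 2, 0 without KO female 3 and 9 without KO female 4. Without KO female 3 the adjusted p was 0.0564 for Hyou1, 0.0755 for Calr and 0.0538 for Dnajc3, and Calr was also lost without KO male 3 (0.0527) or KO female 2 (0.0726). Hspa5 had 415 to 709 CPM in females and 625 to 809 in males and was not called (adjusted p = 0.0818).

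Markers of the cell types of liver were called for few members, beside 9.65% of all genes tested. The lists are short, so a list without a call does not show that the sexes were alike in cell make-up. Of 12 hepatocyte markers, all tested, none was called by edgeR, and their summed level ran from 77852 to 95831 CPM in the females and 58952 to 90468 in the males; 4 were called higher without KO male 2 and 1 lower without KO male 1. No cholangiocyte (6 tested), endothelial (9), stellate cell and matrix (11), macrophage (13), B and plasma cell (7), neutrophil (4), adipocyte (4) or erythroid (4) marker was called; 1 or 2 of the endothelial, stellate, macrophage and adipocyte markers were called without KO male 1, KO male 4 or KO female 4. The 2 markers of T and NK cells called, of 4 tested, were Themis and Cd4. Themis had 0.637, 0.421, 0.391 and 0.194 CPM in the females and 9.41, 10.3, 8.12 and 10.3 in the males (-4.51 ± 0.25, adjusted p = 4.88e-07), while the T cell receptor genes Cd3g (0.601 to 1.15 and 0.23 to 1.01 CPM) and Trac (0.518 to 1.25 and 0.0768 to 1.93 CPM) overlapped. Cd4 lay at 0.693 ± 0.217 and 1.74 ± 0.384 CPM and lost its call without KO female 2 (adjusted p = 0.0647). The pancreatic acinar markers summed to 6.3 to 23.1 CPM in the females and 12.4 to 16.8 in the males, and Cela1, an elastase and the only member of the 14 that was tested, was called lower (adjusted p = 0.0445; 0.0745 to 0.135 without KO male 1, 2 or 3 or KO female 1, 2 or 3).

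Most of these differences had the same direction in the WT livers on the WD, which share no library with the KO comparison. Of 12035 genes tested in both, 490 were called in both, which is 42% of the calls in the KO livers and 42.7% of those in the WT livers (1157 of 12133 genes were called there, 9.54%). There 4.72% were higher and 4.81% lower in females. All 490 had the same direction, and 94.4% of the genes called in the KO livers had the same sign in the WT livers. Cyp2b13, for example, differed by 10.95 ± 0.41 in the WT livers, Cux2 by 5.99 ± 0.72, Mup20 by -7.31 ± 0.41 and Scp2 by -1.15 ± 0.13. In the test of the difference itself, 2 of 13109 autosomal genes (0.0153%) were called, Rassf3 and Clec2d. At an unadjusted p under 0.05 there were 1048 (7.99%), and DESeq2 called 22. Clec2d, a C-type lectin, had 170, 174, 162 and 126 CPM in the KO females and 87.5, 78.2, 91.5 and 80.4 in the KO males, against 125 ± 3.53 and 141 ± 14.6 CPM in the WT females and males (a difference between the sex differences of 1.08 ± 0.20, adjusted p = 0.037). Rassf3, of the RAS association domain family, had 46.7, 52.1, 52.7 and 45.7 CPM in the KO females and 59.5, 63.5, 60.3 and 55.5 in the KO males, against 48.9 ± 2.43 and 104 ± 12.3 CPM in the WT livers (0.82 ± 0.13, adjusted p = 0.0127). For Rassf3 the females of both genotypes overlapped and every KO male lay below every WT male. The count was 0 without WT male 3 or 4, WT female 3 or KO female 2 or 3, and 1 without KO male 1, WT female 1 or 2 or KO female 1. It was 6 without KO male 3, 11 without WT female 4, a library with pancreatic transcripts, and 15 without KO male 2. Both calls were unsteady: Rassf3 was lost without WT male 3 or 4, WT female 3 or KO female 2 or 3 (0.0549 to 0.0745), and Clec2d without WT male 1, 3 or 4, WT female 1, 2 or 3, KO male 1 or 4 or KO female 1, 2 or 3 (0.0506 to 0.149).

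**Figure D4:**
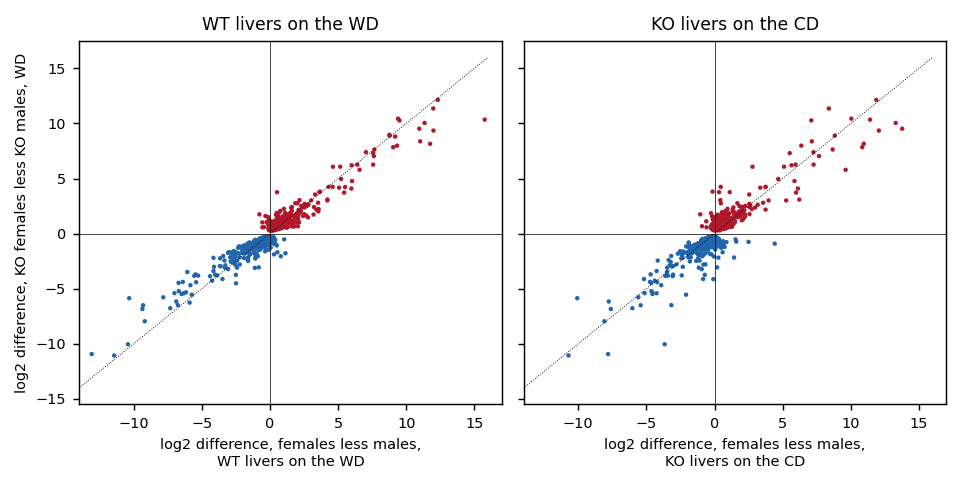
Log2 difference between the sexes in KO livers on the WD (y) against that in WT livers on the WD (left) and in KO livers on the CD (right), for the genes called in the KO livers on the WD, red where higher and blue where lower in females; the dotted line marks equal values. On the left 94.4% and on the right 89.1% of the genes have the same sign on both axes.

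Against the KO livers on the CD, which again share no library, 352 of 12022 genes tested in both were called in both (30.3% of the calls on the WD and 44.2% of those on the CD, where 811 of 12170 were called, 6.66%), 349 of them in the same direction. On the CD 3.45% were higher and 3.21% lower in females. The difference between the diets passed for 32 of 13109 genes (0.244%), 6 with a sex difference moved towards the females (0.0458%) and 26 towards the males (0.198%), while 9.83% had an unadjusted p under 0.05. The count was 21 without KO male CD 3, 18 without KO female WD 3 and 58 without KO female CD 3, a library with pancreatic transcripts. Abcc3, an exporter of conjugates into blood, had 151, 171, 190 and 177 CPM in the KO females on the WD and 238, 263, 261 and 369.7 in the males, so it was lower in females (-0.72 ± 0.15, adjusted p = 0.0103). On the CD it was higher in females, with 178 ± 25.4 and 59.2 ± 13.2 CPM (1.59 ± 0.17), and the diets differed by -2.30 ± 0.30 (adjusted p = 0.000343). Apoa4, an apolipoprotein of triacylglycerol-rich particles, had 494, 466, 475 and 686 CPM in the KO females and 2884, 1929, 780 and 1212 in the KO males on the WD (-1.69 ± 0.37, adjusted p = 0.0266), against 855 ± 134 and 569 ± 187 on the CD (-2.27 ± 0.42 between diets, adjusted p = 0.0127). Its call on the WD was lost without KO male 2 or KO female 1, 2 or 3 (0.074 to 0.088). Apoa4 shares 64.5% of its 31-base words with transcripts annotated as other genes.

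Apom, the apolipoprotein that carries sphingosine-1-phosphate, had 183 ± 19.5 CPM in KO females and 88.8 ± 19.2 in KO males on the WD (1.03 ± 0.15, adjusted p = 0.00145) and 194 ± 14.3 and 184 ± 14.9 on the CD, with a difference of 0.96 ± 0.18 between diets (adjusted p = 0.0127). Hamp, described above, had 296 ± 25.2 CPM in KO females and 354 ± 116 in KO males on the CD (2.11 ± 0.46 between diets, adjusted p = 0.0397). This call was kept without KO male CD 2, KO male WD 4 or KO female WD 1 and lost without any other of the 16 libraries of the contrast (0.0526 to 0.126). Osbpl3, an oxysterol-binding protein, had 1.85, 1.98, 1.72 and 1.68 CPM in the females and 31.6, 11.3, 4.17 and 13.4 in the males on the WD (adjusted p = 0.0262), 1.72 ± 0.248 and 1.5 ± 0.257 on the CD (-3.25 ± 0.52 between diets, adjusted p = 0.00406) and 2.11 ± 0.521 and 3.76 ± 0.854 CPM in the WT livers on the WD. Its sex difference on the WD was lost as a call without KO male 4 or any of the KO females (0.0508 to 0.0843). Themis had 0.344 ± 0.181 and 0.328 ± 0.0787 CPM in KO females and males on the CD (-4.61 ± 0.89 between diets, adjusted p = 0.0127), and 0.525 ± 0.213 and 3.03 ± 2.53 in the WT females and males on the WD. Rassf3 and Clec2d were also called against the CD (0.81 ± 0.13, adjusted p = 0.00406; 1.02 ± 0.20, adjusted p = 0.0127), a test that uses the same KO livers on the WD as the test against WT.

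**Figure D5:**
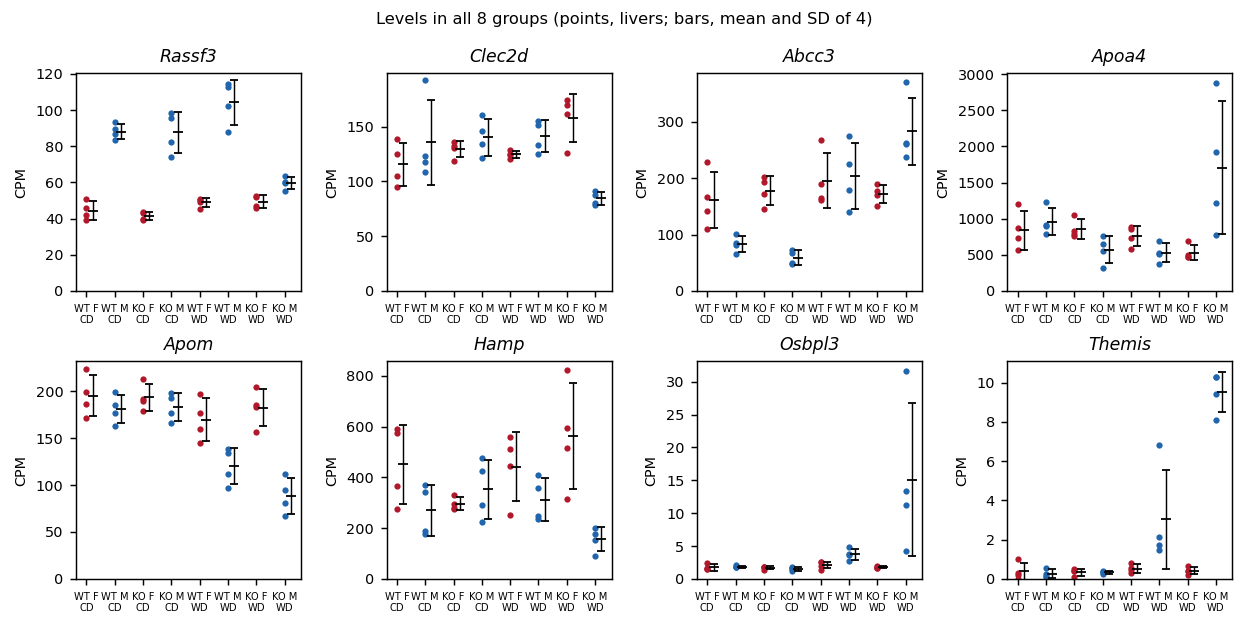
CPM of 8 genes (y, linear) in the 4 livers of each of the 8 groups (x; F females in red, M males in blue), with the mean and SD as bars. The KO males on the WD have the lowest Clec2d and Apom and the highest Themis and Osbpl3 of the 8 group means; their Rassf3 level of 59.7 ± 3.27 CPM is nearer to the females than that of the other males.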

How the data were processed

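The authors prepared poly(A) libraries from whole liver (KAPA mRNA HyperPrep), sequenced them as 50-base pairs and quantified transcripts with Salmon 1.3.0 on Ensembl 101; the deposited files give an estimated count and a TPM value per transcript with its length and effective length. Here the estimated counts were summed by gene with GENCODE vM21 (GRCm38), which held 115973 of 117135 transcripts, and rounded. Transcripts outside it held 0.337 to 0.386% of the counts of the 8 libraries. A gene was tested where 4 or more of the 8 libraries had 10 or more counts. The test was edgeR 4.0.16 (TMM, robust quasi-likelihood, R 4.3.3), adjusted over all 12708 such genes, of which 12306 are autosomal. Differences between sex differences came from a model of all 32 libraries. The deposited TPM values were read but no test used them. Each library came from a separate mouse.

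Genes named are Nudt7, the 12 called genes with the largest difference in each direction (mean of at least 5 CPM, sexes not overlapping), up to 4 genes of smallest p per list, up to 6 per difference between groups, and relatives of these; Dnajc3, Fasn, Scd1, Trac, Cd3g and those that stand apart in a single liver were partly named after their values were seen. The members and lists were chosen with earlier results of these data known. Same-numbered females and males did not deviate together (correlations of -0.186, -0.118, 0.0878 and 0.0326), so no pairing was used. Scripts were tested on simulated counts. Alternatives were other size factors, DESeq2 1.42.0, length offsets, filters, a replicate block and leaving out each library. The fits that left out a library kept the genes of the fit reported. Those with another filter or another set of libraries chose their genes anew. Some genes are not reported here.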

Additional observations from a re-analysis of the deposited data

Results flagged for a closer look

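A single KO liver stood apart from the other 3 of its group for 25 of the gene levels in the text, by the gap to its neighbour relative to the range of the group. For values drawn from a normal distribution chance alone gives this in about 1 in 20 groups. Some of these genes were named after their values were seen, so the 25 cannot be compared with that rate. KO male 1 had the extreme level of Cyp3a44 at 1.12 CPM, Sult2a8 at 477.3, Sqle at 2.23, Gpat4 at 159.0, and the macrophage genes Gpnmb at 62.7 (1.31 to 2 in the other males), Itgax at 12.8 (2.46 to 3.1) and Mmp12 at 55 (4.17 to 12.3). Pdgfrb, a marker of stellate cells, was also extreme in that liver, at 22.8 CPM against 12.8 to 13.8. KO female 4 had the extreme level of Cyp4a12b at 0.13 CPM, Cyp2d9 at 20.9, Esr1 at 42.3, Hsd3b5 at 2.27, Mup20 at 85.4, Apoa4 at 686.0, and the adipocyte genes Cfd at 8.94 (0 to 0.127 in the other females) and Fabp4 at 40.3 (5.86 to 7.89). KO female 2 had that of Tox at 13.3 CPM, Mup12 at 1.38, Mbl2 at 480.6 and Ces1d at 820.6, and KO female 1 that of Nudt7 at 63.1. KO male 2 stood apart for Cyp3a41b at 0.461 CPM, KO male 3 for Mup1 at 1444.5 and Cd36 at 130.7, and KO male 4 for Gpat3 at 14.3. The macrophage, stellate cell and adipocyte genes named here are a few of the 14, 12 and 8 markers listed. Levels of the other markers in these livers are not given, so a change of cell type cannot be read from them.

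The sex difference of the KO livers on the WD differed from that of the WT livers on the WD for Rassf3 (0.82 on the log2 scale, positive where the difference was moved towards the females) and Clec2d (1.08). It differed from that of the KO livers on the CD for 32 genes. Moved towards the females were Rassf3 (0.81), Apom (0.96), Clec2d (1.02), Adgrf1 (2.80), Rpl28-ps1 (0.92) and Hamp (2.11). Moved towards the males by more than 2 were Abcc3 (-2.30), Osbpl3 (-3.25), Lrrc39 (-4.32), Gpat3 (-2.50), Npnt (-3.11), Il1rn (-2.86), Krt23 (-3.60), Apoa4 (-2.27), Themis (-4.61), Pnldc1 (-2.45), Cfd (-9.83), Fbxo40 (-4.21), Tpm2 (-5.30), Cyp2b10 (-7.86) and Adgrv1 (-2.58). Moved less were Sulf2 (-1.35), Fam53b (-1.03), Dio1 (-0.83), Tacc2 (-1.01), Fbf1 (-1.85), Aldh3a2 (-1.21), 2410131K14Rik (-0.93), Alpl (-1.23), Notch1 (-0.74), Pitrm1 (-0.53) and Plod1 (-0.55). Of the 32, 16 stayed called in all 17 fits that left out a library or the libraries with pancreatic transcripts. Krt23 and Tacc2 stayed called in 16 of them, Pnldc1 in 13, Fbxo40 and Rpl28-ps1 in 11, Cfd in 9 (-14.76 to -8.67, adjusted p = 0.0968 at most), Tpm2 and 2410131K14Rik in 8, Aldh3a2, Alpl and Pitrm1 in 7, Cyp2b10, Notch1 and Plod1 in 5, Adgrv1 in 4 and Hamp in 3.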

How the results depend on the processing

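The 1187 calls between KO females and KO males became 774 with a replicate block (700 of them among the 1187) and 175 when the difference had to exceed 1.5-fold; they lay between 579 and 1242 when each library was left out in turn. Other size factors, filters and length offsets, the model of all 32 libraries, DESeq2 (1618) and removal of the length trend of each library, a choice made after seeing the data (1056), stayed within 1.5 times. Differences ran with effective length across genes (Spearman correlation of -0.231). The 2 calls against WT became 4 with RLE size factors, 22 with DESeq2, 25 with DESeq2 and length offsets, 1 with edgeR and length offsets, 14 without the libraries with pancreatic transcripts, 3 with the replicate block and 0 to 15 without single libraries. The 32 calls against the CD became 162 with DESeq2, 130 with DESeq2 and length offsets, 70 without the libraries with pancreatic transcripts, 26 with the block and 18 to 58 without single libraries. Small differences changed sign: Ghr to 0.04 with length offsets in either tool, 0.06 without KO male 2 and 0.01 without KO male 3 (-0.14 to 0.06 without single libraries), Igf1 to -0.01 with length offsets in either tool, Stat5b to 0.06 with the length trend removed and 0.01 without KO male 4, and Fabp4 to -0.09 with the block and -0.79 without KO female 4 (-0.79 to 0.66 without single libraries). The causes were not tested. Counts of 0 to 3 limit the folds of Cyp4a12a, Cyp4a12b, Mup8, Sult2a3 and Sult2a5.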

Other observations

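Other gene lists were called in both directions, beside 4.18% higher and 5.47% lower of all genes tested. Of 17 sex steroid receptors and steroid enzymes tested, 3 were higher in KO females (Cyp17a1, Esr1 and Hsd11b1) and 5 lower (Srd5a1, Hsd3b5, Hsd3b3, Hsd3b2 and Hsd17b11), the latter 3 without KO female 3. Of 19 genes of bile acid synthesis and conjugation, Cyp2c70 was higher and Scp2, Cyp7b1, Hsd17b4 and Acox2 were lower. The 4 fell to 2 without KO female 2 or 3. The 1 fell to 0 without KO male 3 or KO female 1 or 3 and became 3 without KO male 2. Of 14 genes of bile acid transport, 2 were higher (Abcc4 and Slc10a1) and 3 lower (Abcb4, Abcc3 and Nr0b2). The 2 fell to 0 or 1 without KO male 1, 3 or 4 or KO female 1, 2 or 3. Of 36 complement and coagulation genes 5 were higher (Mbl2, F7, Kng2, Serpinc1 and Kng1) and 3 lower (C6, C9 and C8a). The 5 fell to 3 without KO male 4 and to 2 without KO female 1, 2 or 3.

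Lists with few calls are given by their counts, to be read beside 4.18% higher and 5.47% lower of all genes tested. A single call in a list of this size is near what those shares give. Among 10 acyl-CoA thioesterases, Acot13 was higher and none was lower. The 1 fell to 0 without KO male 1, 2 or 3 or KO female 1, 2 or 3 and became 2 without KO male 4 or KO female 4. Among 18 apolipoproteins, Apom, Apoc3 and Apof were higher and Apoa4 and Apoc2 lower, and neither of the latter was called without KO male 2 or KO female 1, 2 or 3. Of 20 nuclear receptors of liver metabolism, Nr0b2 was called, lower in females, a call lost without KO male 2 or 4 or any of the KO females.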
